A study of Mus musculus with 20 samples.

Results

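The Myc, Max and Mxd network was followed in newborn and embryonic mouse lenses that lack 3 E2F transcription factors. It was taken as 8 genes, Myc, Mycn, Max, Mxd1, Mxd3, Mxd4, Mxi1 and Mnt, and its members were every probe set annotated to 1 of them alone. That gave 19 probe sets for the 8 genes, among 18193 genes on the arrays. RNA of 20 mice was measured, both lenses of a mouse on 1 Affymetrix array, in 4 groups of 5 arrays. Triple knockout (TKO) lenses had the genotype Cry-Cre E2F1-/- E2F2-/- E2F3f/f, at birth (P0) or at the embryonic stage E17.5. Control lenses were E2F2-/- at the same stages, so all groups lacked E2F2 and the Cre transgene was in TKO lenses alone. Cry-Cre names a Cre driven from a crystallin promoter, and crystallins are the main proteins of the lens. In cells where that Cre does not act, the floxed E2F3 stays intact.

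Myc and Mycn are transcription factors that drive cell growth, ribosome production and division. They bind DNA as a pair with Max, most tightly at the E-box sequence CACGTG, and recruit histone acetylases. The Mxd proteins (Mxi1 is one of them) and Mnt also pair with Max at E-boxes, but they bring in the Sin3 corepressor and histone deacetylases and hold the same genes down. Cells that leave the cycle and differentiate often exchange Myc for Mxd proteins, and in the mouse lens both Myc and Mycn are known to be needed for normal growth.

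The labels name the cells as epithelial, but 12 of 12 lens fibre markers on the array lay above the array median on all 20 arrays. Their mean was 13.7 to 13.8 (log2) in both P0 groups and 13.3 to 13.6 at E17.5, so the samples held fibre RNA as well. Of 8 lens epithelium markers, 8 lay above the median on all arrays of each group except control P0, where 7 did. The probe set that stood for E2f1 was higher in TKO lenses, by 0.44 ± 0.09 (log2, SE) at P0 and 0.60 ± 0.08 at E17.5 (limma, Benjamini-Hochberg adjusted p = 0.00263 and 0.00788). E2f3 differed by -0.06 ± 0.08 at P0 and -0.07 ± 0.10 at E17.5 (adjusted p = 0.595 and 0.681). Whether these probe sets lie in the deleted parts was not tested, so they do not check the genotypes. The spread was wider among TKO arrays, with a median SD of a gene of 0.150 in TKO P0, 0.103 in control P0, 0.204 in TKO E17.5 and 0.0963 in control E17.5 lenses. Among TKO E17.5 lenses, replicates 24 and 27 were closer to control E17.5 arrays (mean correlations of 0.985 and 0.990) than to the rest of the TKO E17.5 arrays (0.969 and 0.972). Fits with TKO E17.5 lenses were repeated without them, and values are given for the members whose call then changed. The gene lists were not counted that way. Since these replicates were picked for their likeness to the controls, leaving them out widens differences between TKO and control lenses by construction, and 2953 genes were then called at E17.5 in place of 343.

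Promoters of 7 of the 8 genes had a RefSeq entry on GRCm38.p6, as windows of 250 bases before and 50 after the gene start, and Myc had none. Each window was searched on both strands for 4 E2F words, TTTCCCGC, TTTCGCGC, TTTGCCGC and TTTGGCGC, and for the E-box CACGTG. These were chosen because the lenses lack E2F proteins and because the network acts at E-boxes. Mycn held 3 E2F words, 2 of which overlap, between 183 and 161 bases before its start, and was the only one of the 7 with any. Mxd4, Mnt and Max held 1 E-box each, 219 to 214 bases before the start, 123 to 118 bases before it, and across the start itself. Over all 32851 windows, 2.26% held an E2F word and 7.15% an E-box. A match describes letters in the window and does not show that a factor binds. The stretches around the matches are shown 5′ to 3′ along the gene, with the matched words in capitals.
Mycn, chr12:12941977-12942039, minus strand: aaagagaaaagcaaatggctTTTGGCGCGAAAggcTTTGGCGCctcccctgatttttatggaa
Mxd4, chr5:34187904-34187949, minus strand: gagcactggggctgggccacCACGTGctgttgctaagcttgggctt
Mnt, chr11:74830781-74830826, plus strand: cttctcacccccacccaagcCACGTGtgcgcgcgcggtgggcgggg
Max, chr12:76962246-76962271, minus strand: cccggcgcggtgagcccggtCACGTG

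The windows of Mxd1, Mxd3 and Mxi1 held none of these words. The promoter of Mxd1, the member with the largest TKO difference, had a GC content of 78.4% over the 250 bases before the start. This was the highest of the member windows and that of Mycn the lowest, at 54.8%. Others came near Mxd1, among them a window of Mxi1 at 77.2% and that of Mxd3 at 73.2%. The Mxd1 promoter is shown whole because it belongs to the gene whose change at P0 leads the results.
Mxd1, chr6:86669160-86669409, minus strand: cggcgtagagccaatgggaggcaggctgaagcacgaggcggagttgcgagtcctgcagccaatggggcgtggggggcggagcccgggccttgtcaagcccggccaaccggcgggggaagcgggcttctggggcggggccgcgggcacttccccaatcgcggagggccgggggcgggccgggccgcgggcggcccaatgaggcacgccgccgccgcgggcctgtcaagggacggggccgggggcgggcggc

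At birth, the probe sets that stood for 3 of the 8 genes were lower in TKO lenses and that of 1 gene was higher. Mxd1, a repressor of Myc target genes, fell 1.87-fold, Mycn fell 1.32-fold and Mxi1, another repressor of the Mxd group, fell 1.24-fold. Myc itself was 1.30-fold higher. The call of Mxd1 was shared by 2 of its 3 probe sets, that of Mycn by 1 of 3 and that of Mxi1 by 1 of 2. Retina markers also differed between the genotypes at P0. The mean level of the 18 retina markers on the array was 6.59 to 7.72 (log2) in TKO P0 lenses and 4.71 to 6.25 in control P0 lenses, ranges that did not overlap. With the mean of the 17 tested ones as a covariate, in a fit of all 20 arrays with 1 estimate of the spread, none of the 4 genes was called. Without the covariate, a fit of all 20 arrays called 3 of them and not Mycn. Max, Mxd3, Mxd4 and Mnt did not pass an adjusted p below 0.05. These 4 calls of 8 stand against 39.6% of all 11859 genes tested that were called at P0, with 20.2% called higher and 19.4% lower, so the share of members called is close to that of all genes. The median change of the 8 genes was -0.23 (log2), against -0.01 over all genes tested. The arrays measure whole lenses, so fewer cells of a type and less RNA per cell cannot be told apart.

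**Figure D1:**
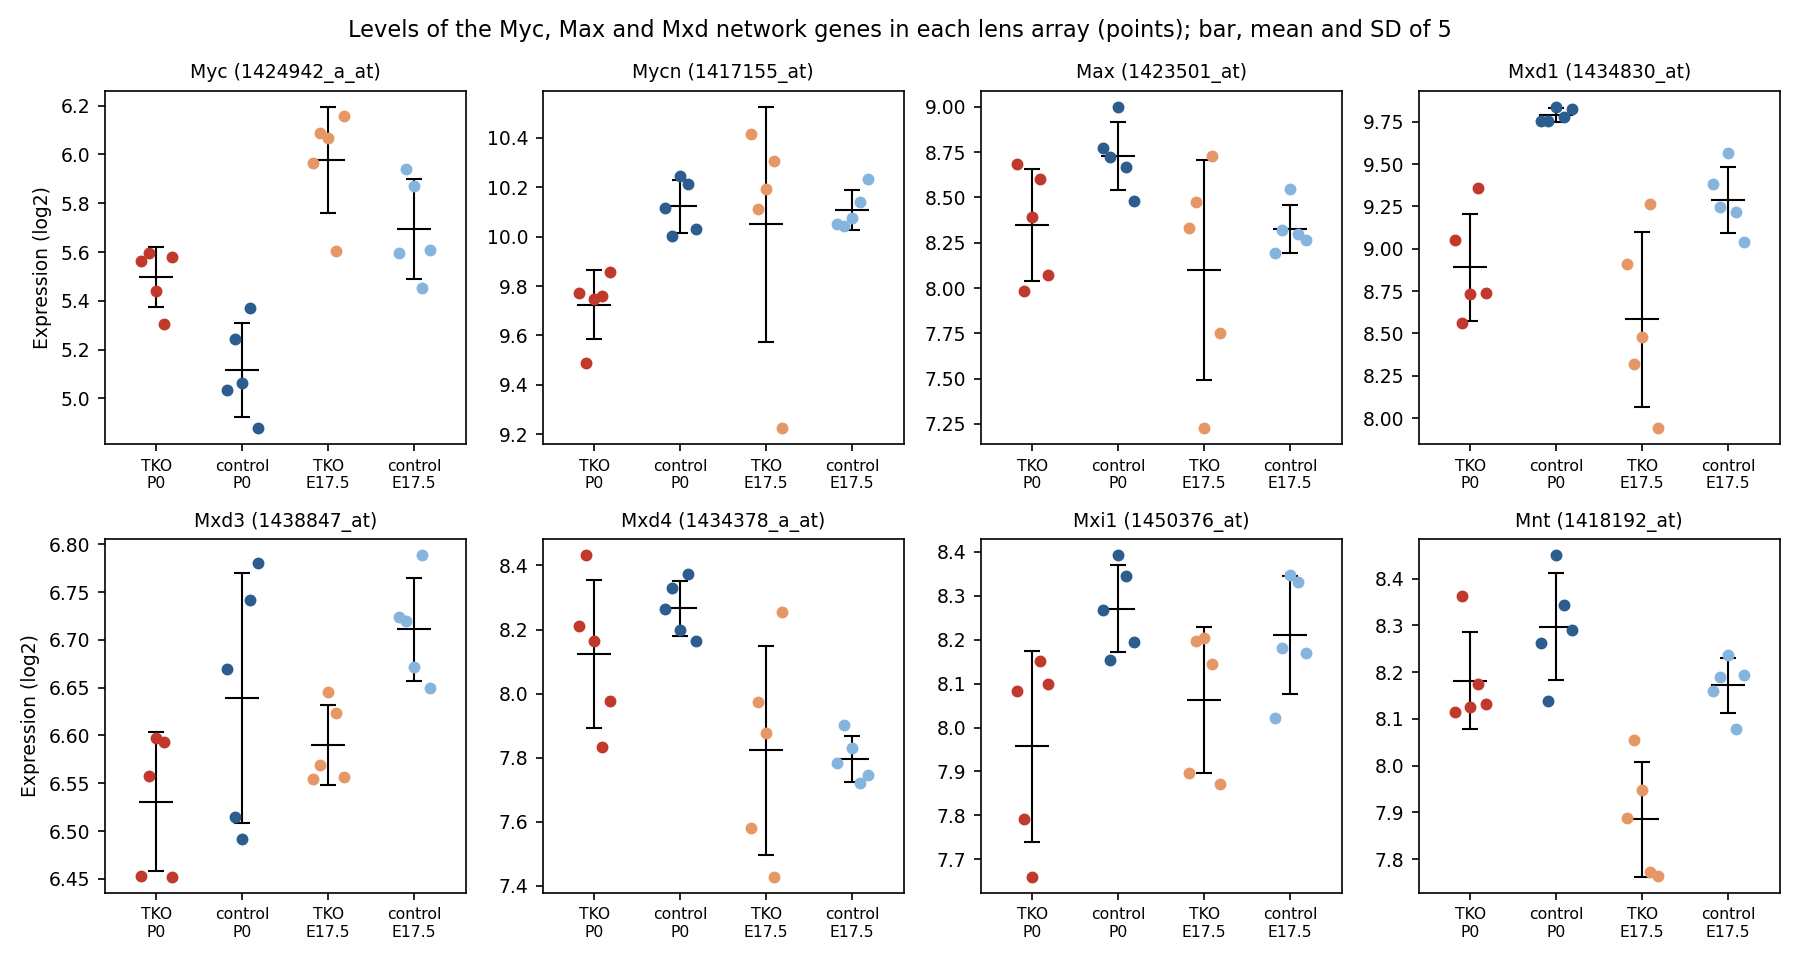
Expression (log2) of the probe set that stands for each of the 8 genes, 1 point per lens array, with TKO P0, control P0, TKO E17.5 and control E17.5 from left to right and bars for the mean and SD of 5 arrays. Mxd1 is lower in all 5 TKO P0 lenses than in any control P0 lens, and Myc is lower at P0 than at E17.5 in both genotypes.

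Mycn, the member with E2F words before its start, has 3 probe sets and was represented by 1417155_at, the one of highest mean. Its levels in the 5 TKO P0 lenses were 9.77, 9.49, 9.75, 9.76 and 9.86 (log2), against 10.12, 10.004, 10.25, 10.21 and 10.03 in the control P0 lenses. All TKO values lay below all control values, a difference of -0.40 ± 0.08 (log2, SE; limma, adjusted p = 0.00298), and with 1 estimate of the spread from all 20 arrays the adjusted p was 0.0505. The other Mycn probe sets differed by -0.05 ± 0.07 (1425922_a_at) and -0.10 ± 0.12 (1425923_at), with adjusted p = 0.593 and 0.550 over all probe sets, so they did not share the call. At E17.5 the levels were 10.42, 10.11, 10.19, 10.31 and 9.22 in TKO lenses, against 10.05, 10.04, 10.08, 10.14 and 10.23 in control lenses. With 1417155_at, 4 TKO lenses lay within or above the control range and replicate 28 lay far below, and the difference was -0.06 ± 0.19 (adjusted p = 0.869). The other probe sets differed at E17.5 by 0.18 ± 0.13 (1425922_a_at) and -0.23 ± 0.07 (1425923_at). Neither passed (adjusted p = 0.403 and 0.0629 over all probe sets), though for 1425923_at every TKO lens lay below every control lens. At E17.5 the 3 probe sets thus did not share a direction. By group mean of 1417155_at the order was control P0, control E17.5, TKO E17.5 and TKO P0, and neighbours in that order overlapped.

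Myc has a single probe set, 1424942_a_at, that lay near the array median, above it in 17 of 20 arrays. The 5 TKO P0 lenses had 5.56, 5.60, 5.44, 5.30 and 5.58 (log2), against 5.03, 5.24, 5.06, 5.37 and 4.88 in the control P0 lenses. Of the TKO lenses 1 fell inside the control range and 4 lay above it, and the difference was 0.38 ± 0.10 (limma, adjusted p = 0.00996). At E17.5 the TKO lenses had 5.97, 6.09, 6.07, 5.61 and 6.16, against 5.60, 5.94, 5.87, 5.45 and 5.61 in control lenses. All TKO E17.5 lenses except replicate 27 exceeded the highest control, with a difference of 0.28 ± 0.12 that did not pass (adjusted p = 0.184).

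Max, the shared partner of the other members, also has 1 probe set. Its levels were 8.68, 7.99, 8.39, 8.60 and 8.07 (log2) in TKO P0 lenses, against 8.77, 8.72, 9.002, 8.67 and 8.48 in control P0 lenses. The groups overlapped, and the difference of -0.38 ± 0.14 missed the threshold (limma, adjusted p = 0.0545). It passed without control P0 replicate 8 (-0.44, adjusted p = 0.0416), without TKO P0 replicate 17 (-0.47, adjusted p = 0.0284) and without TKO P0 replicate 21 (-0.45, adjusted p = 0.0316). These were the lowest control array and the highest TKO arrays, so leaving them out widens the difference by construction. It did not pass without any other single array. With all arrays kept, it passed with median centring (-0.40, adjusted p = 0.0481) and with the stricter filter on low values (-0.38, adjusted p = 0.0461). In the other alternatives that kept all arrays it did not pass. Over all alternatives the change ran from -0.47 to -0.26, with adjusted p up to 0.576. At E17.5 TKO lenses had 8.33, 8.48, 7.23, 8.73 and 7.75, against 8.19, 8.32, 8.55, 8.30 and 8.26 in control lenses. The TKO values spread on both sides of the controls, and the difference was -0.22 ± 0.24 (adjusted p = 0.582).

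Mxd1 represses Myc targets with Max and is known from many tissues to increase as cells differentiate. The probe set that stood for it, 1434830_at, gave 9.05, 8.56, 8.73, 9.36 and 8.74 (log2) in TKO P0 lenses, against 9.75, 9.76, 9.84, 9.78 and 9.82 in control P0 lenses. The control lenses lay within a narrow band, and every TKO lens lay below it, with a difference of -0.90 ± 0.13 (limma, adjusted p = 0.00059). A second probe set, 1455104_at, differed by -1.005 ± 0.15 (adjusted p = 0.000772 over all probe sets), while 1422002_at differed by -0.18 ± 0.15 and did not pass (adjusted p = 0.372). At E17.5 the levels of 1434830_at were 8.91, 8.32, 8.48, 9.26 and 7.94 in TKO lenses, against 9.38, 9.25, 9.57, 9.22 and 9.04 in control lenses. Here 4 TKO lenses lay below all controls and replicate 27 lay among them, and the difference of -0.71 ± 0.22 did not pass (adjusted p = 0.0886). The other probe sets differed by -0.58 ± 0.28 (1455104_at) and 0.04 ± 0.23 (1422002_at), with adjusted p = 0.214 and 0.924, and the mean of all 3 by -0.41 (adjusted p = 0.292). Without TKO E17.5 replicate 27, 1434830_at differed by -0.88 ± 0.18 (adjusted p = 0.0195). That replicate was the highest TKO E17.5 array, so leaving it out widens the difference by construction. With no array left out, the Mxd1 difference of -0.71 passed when all 20 arrays shared 1 estimate of the spread (adjusted p = 0.021). It also passed with a weight per group (adjusted p = 0.0331), and in no other alternative that kept all arrays. The order by mean was control P0, control E17.5, TKO P0 and TKO E17.5, and the control groups did not overlap each other.

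Mxi1 (also called Mxd2) gave opposite signs with its 2 probe sets. With 1450376_at, which stood for the gene, TKO P0 lenses had 8.08, 7.79, 7.66, 8.15 and 8.10 (log2), against 8.27, 8.15, 8.39, 8.34 and 8.20 in control P0 lenses. The highest TKO lens lay just under the lowest control, and the difference was -0.31 ± 0.10 (limma, adjusted p = 0.0282). With 1425732_a_at the TKO mean was 6.89 and the control mean 6.69, a difference of 0.20 ± 0.08 that did not pass (adjusted p = 0.0658 over all probe sets). The mean of both probe sets differed by -0.06 ± 0.08 (adjusted p = 0.594), so the fall holds for 1 probe set and not for the gene as a whole. It was also lost without control P0 replicate 6 or 7, or TKO P0 replicate 18 or 19 (adjusted p = 0.0574 to 0.0682). At E17.5, 1450376_at differed by -0.15 ± 0.10 and 1425732_a_at by 0.31 ± 0.14, and neither passed (adjusted p = 0.342 over genes and 0.174 over probe sets).

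The probe sets that stood for Mxd3, a repressor of the same group found in dividing cells, and for Mxd4 did not pass at either stage. Mxd3 (1438847_at) averaged 6.53 ± 0.07 (log2, SD, n = 5) in TKO P0 lenses and 6.64 ± 0.13 in control P0 lenses, a change of -0.11 ± 0.07 (limma, adjusted p = 0.245). At E17.5 it averaged 6.59 ± 0.04 in TKO lenses and 6.71 ± 0.05 in control lenses, and the groups did not overlap, but the change of -0.12 ± 0.06 did not pass (adjusted p = 0.203). A dim Mxd3 probe set, 1448878_at, lay below the array median on all 20 arrays, at 3.04 to 3.38 in TKO E17.5 and 3.45 to 3.80 in control E17.5 lenses. In a fit of every probe set without the filter on low values, added after the data were seen, it differed by -0.47 ± 0.10 (adjusted p = 0.0237), so at E17.5 the call depends on the probe set. Mxd4 averaged 8.12 ± 0.23 in TKO P0 and 8.27 ± 0.09 in control P0 lenses, with a change of -0.14 ± 0.10 (adjusted p = 0.293). At E17.5 its TKO lenses averaged 7.82 ± 0.33 and its control lenses 7.80 ± 0.07, a change of 0.03 ± 0.14 (adjusted p = 0.918).

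Mnt is a broadly expressed repressor that pairs with Max in resting and dividing cells alike. Its probe set 1418192_at averaged 8.18 ± 0.10 (log2) in TKO P0 and 8.30 ± 0.11 in control P0 lenses, a change of -0.12 ± 0.07 (limma, adjusted p = 0.225). At E17.5 the TKO lenses had 7.89, 8.05, 7.95, 7.77 and 7.76, against 8.16, 8.19, 8.24, 8.08 and 8.19 in control lenses. Every TKO E17.5 lens lay below every control lens, and the change of -0.29 ± 0.07 lay close to the threshold without passing it (adjusted p = 0.0576). It passed in other fits of the same arrays, with adjusted p = 0.0151 when all 20 arrays shared 1 estimate of the spread.

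At E17.5 as a whole, none of the 8 genes was called by limma, and 3 of them, Myc, Mxd1 and Mnt, had an unadjusted p below 0.05, as did 25.6% of all genes. Over all genes 2.89% were called at this stage, 1.59% higher and 1.31% lower. Groups of TKO and control lenses did not overlap for 2 of the 8 genes at E17.5, Mxd3 and Mnt, against 9.95% of all genes. At P0 they did not overlap for 3, Mxd1, Mycn and Mxi1, against 25.9% of all genes. Without TKO E17.5 replicates 24 and 27, chosen for their likeness to controls, Mxd1 differed by -1.04 ± 0.15 (adjusted p = 0.00202) and Myc by 0.41 ± 0.12 (adjusted p = 0.0312). The other members, Mnt among them, were not called in that fit either. The values of Mxd1 and Myc in that fit therefore do not stand as separate evidence of a difference. The difference between the P0 and E17.5 effects was tested over all 20 arrays, and no member passed or had an unadjusted p below 0.05, where 0.177% of all genes passed, 0.0337% higher and 0.143% lower. The largest such difference was that of Mycn, -0.34 ± 0.22 (log2; limma, adjusted p = 0.456). Without TKO E17.5 replicate 28 it was -0.55 ± 0.11 (adjusted p = 0.026), and 168 genes were called in place of 21. That array was the lowest for Mycn among TKO E17.5 lenses, so leaving it out enlarges the Mycn difference by construction. With all arrays kept, the other Mycn probe sets gave -0.23 ± 0.15 (1425922_a_at) and 0.13 ± 0.14 (1425923_at). Neither passed (adjusted p = 0.454 and 0.657 over all probe sets). A P0 call with no call at E17.5 is thus not shown to be a difference between the stages.

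**Figure D2:**
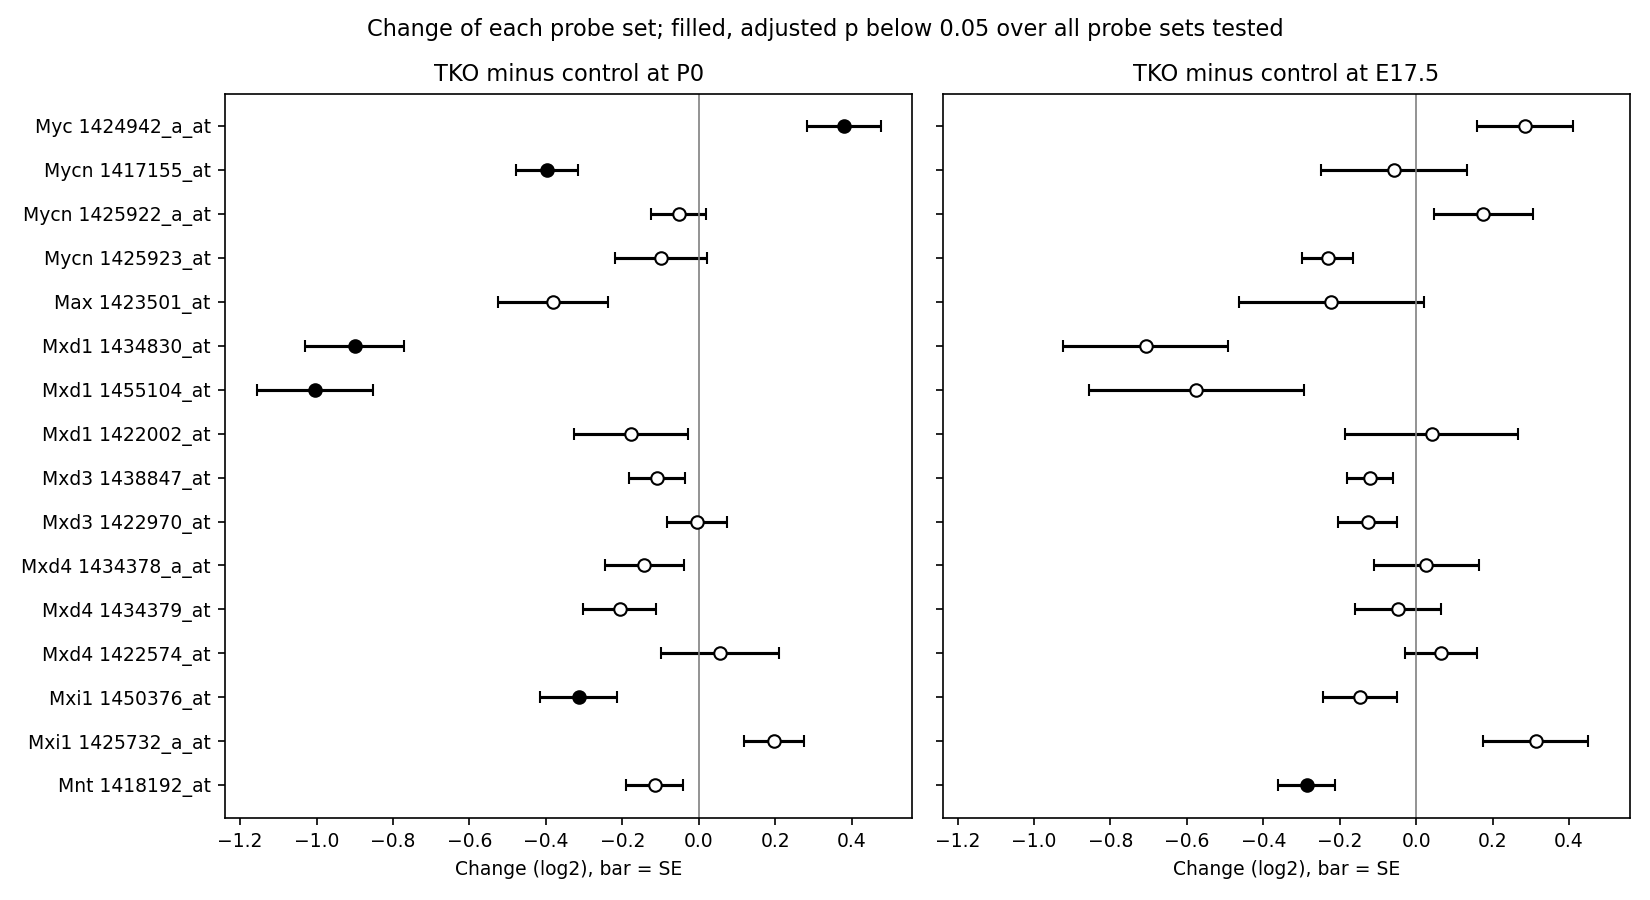
Change between TKO and control lenses (log2, bar = SE) for each tested probe set of the 8 genes, at P0 on the left and at E17.5 on the right, filled where the adjusted p over all probe sets is below 0.05. At P0 1434830_at and 1455104_at of Mxd1 lie at -0.90 and -1.005, while the probe sets of Mxi1 lie on both sides of 0.

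Markers of other eye tissues also differed between the genotypes at P0. Of 17 tested retina markers, 16 rose in TKO P0 lenses and none fell, with a median change of 1.64 (log2). At E17.5 the retina marker means were 5.90 to 8.07 in TKO lenses and 5.67 to 6.81 in control lenses, and no marker of the list passed. Of 8 tested pigment cell markers, 6 rose at P0, and of 9 macrophage markers 5 rose. Of 8 lens epithelium markers, 3 rose and 5 fell at P0, with a median change of -1.11. With the retina marker mean as a covariate, Mxd1 differed at P0 by -0.71 ± 0.24 (limma, adjusted p = 0.0638), Mycn by -0.28 ± 0.20 (adjusted p = 0.385) and Mxi1 by -0.40 ± 0.13 (adjusted p = 0.0532). Myc then differed by 0.38 ± 0.16 and lost its call too (adjusted p = 0.113). The part of these tissues in the network's changes was not tested further.

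**Figure D3:**
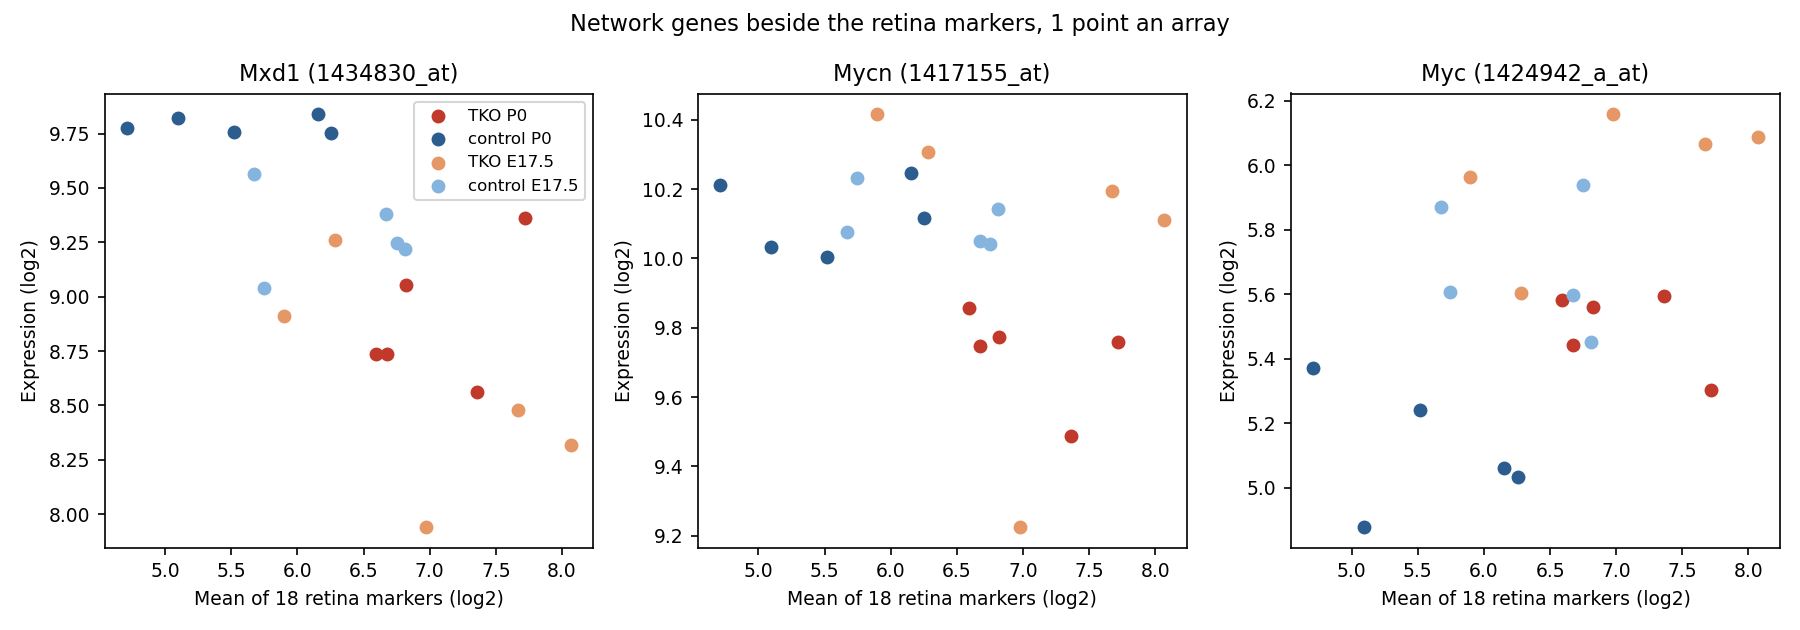
Mean level of the retina markers (log2, x axis) beside the level of Mxd1, Mycn and Myc (log2, y axis) in each of the 20 lens arrays, coloured by group. TKO P0 lenses lie at 6.59 to 7.72 and control P0 lenses at 4.71 to 6.25 on the x axis, so the genotypes do not share a range of this marker mean at P0.

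Between the stages, control lenses showed less Myc and more Mxd1, Mxd4 and Max at P0 than at E17.5. Myc fell 1.49-fold, while the repressors Mxd1 and Mxd4 rose 1.41-fold and 1.38-fold and Max rose 1.32-fold. These 4 calls of 8 stand against 37.4% of all genes called in that comparison, 12.5% higher and 24.9% lower. Control lenses at P0 and at E17.5 did not overlap for 3 of the 8 genes, Myc, Mxd1 and Mxd4, against 24.9% of all genes. In TKO lenses 2 of the 8 genes were called, Myc lower and Mnt higher at P0, against 14.6% of all genes, 5.8% higher and 8.77% lower. TKO lenses at P0 and at E17.5 did not overlap for these 2 genes, against 11.8% of all genes.

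Myc averaged 5.50 ± 0.12 (log2, SD, n = 5) in TKO P0 and 5.98 ± 0.22 in TKO E17.5 lenses, a change of -0.48 ± 0.11 (limma, adjusted p = 0.0222). In control lenses it averaged 5.12 ± 0.19 at P0 and 5.69 ± 0.20 at E17.5, a change of -0.58 ± 0.11 (adjusted p = 0.00255). The lower level at P0 was thus measured in both genotypes. The TKO call was lost without TKO P0 replicate 17 or 19, or TKO E17.5 replicate 25 or 26 (adjusted p = 0.0529 to 0.0636). By mean the groups ran TKO E17.5, control E17.5, TKO P0 and control P0, each overlapping the next.

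Mxd4 gave the smallest adjusted p of the network between stages. Its probe set 1434378_a_at had 8.26, 8.33, 8.20, 8.37 and 8.16 (log2) in control P0 lenses, against 7.78, 7.90, 7.83, 7.72 and 7.75 in control E17.5 lenses. All P0 values lay above all E17.5 values, with a change of 0.47 ± 0.05 (limma, adjusted p = 0.000152), and the other tested probe sets of Mxd4 rose too, by 0.50 (1434379_at) and 0.32 (1422574_at). In TKO lenses the change was 0.30 ± 0.16 (adjusted p = 0.219), with 8.21, 8.43, 8.16, 7.83 and 7.98 at P0, against 7.58, 7.97, 7.88, 7.43 and 8.26 at E17.5. The TKO stages overlapped.

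Mxd1 changed between stages by 0.50 ± 0.08 in control lenses (log2; limma, adjusted p = 0.00104) and by 0.31 ± 0.24 in TKO lenses (adjusted p = 0.389). Without TKO E17.5 replicates 24 and 27, under the limit given above for leaving them out, the TKO change was 0.64 ± 0.19 (adjusted p = 0.0474). All 3 of its probe sets rose at P0 in control lenses, by 0.50, 0.80 and 0.62, including 1422002_at, which had not passed between genotypes. Max changed by 0.41 ± 0.09 in control lenses (adjusted p = 0.00655), with overlap, and by 0.25 ± 0.26 in TKO lenses (adjusted p = 0.544). With 1 estimate of the spread from all 20 arrays, neither Mxd1 nor Max was called in control lenses (adjusted p = 0.0725 and 0.196). With the retina covariate neither was called either (adjusted p = 0.216 and 0.369), and 8 of 17 retina markers fell at P0 in control lenses.

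Mnt changed by 0.30 ± 0.09 (log2) in TKO lenses (limma, adjusted p = 0.0416) and by 0.13 ± 0.06 in control lenses (adjusted p = 0.113). The TKO call did not hold without TKO P0 replicate 17, 18, 19 or 21, or TKO E17.5 replicate 24, 26 or 27 (adjusted p = 0.062 to 0.098), or without both 24 and 27 (adjusted p = 0.112). The control difference passed without control P0 replicate 5, at 0.17 (adjusted p = 0.0368). That array was the lowest of control P0, so leaving it out widens the difference by construction. Mycn changed by -0.33 ± 0.20 in TKO lenses (adjusted p = 0.270) and by 0.01 ± 0.06 in control lenses (adjusted p = 0.874). Without the low TKO E17.5 replicate 28, the Mycn change in TKO lenses was -0.53 ± 0.09 (adjusted p = 0.00944). Leaving out the array of lowest Mycn at E17.5 enlarges this fall by construction, and 2716 genes were then called in place of 1728. With all arrays kept, the other Mycn probe sets changed in TKO lenses by -0.25 ± 0.14 (1425922_a_at) and 0.29 ± 0.12 (1425923_at). Neither passed (adjusted p = 0.231 and 0.123 over all probe sets). Mxi1 and Mxd3 passed in neither genotype.

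**Figure D4:**
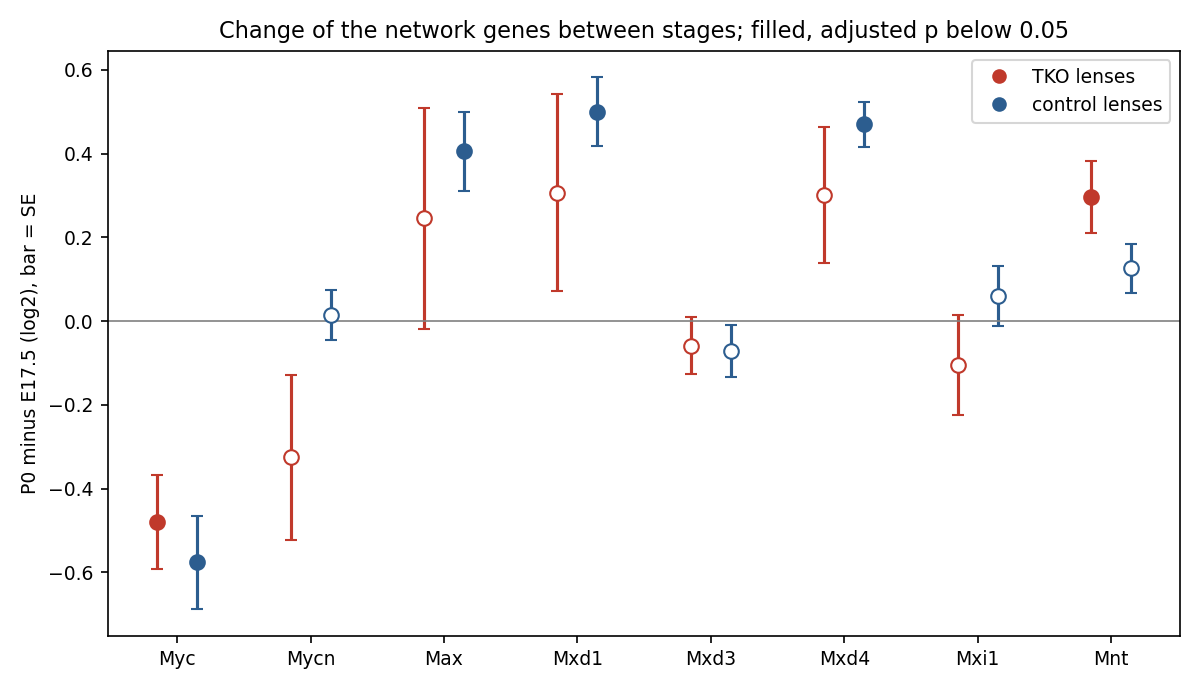
Change between P0 and E17.5 (log2, bar = SE) of the 8 genes in TKO lenses and in control lenses, filled where the adjusted p is below 0.05. Myc lies below 0 in both genotypes, at -0.48 in TKO and -0.58 in control lenses, and Mxd1, Mxd4 and Max are filled above 0 in control lenses.

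The genes that work with the network moved in both directions at P0, where 20.2% of all genes were called higher and 19.4% lower. The counts of these small lists are descriptions beside those shares and are not read as particular to a list. In the extended network, which pairs with Max or the Max-like factor Mlx, 1 of 4 tested genes rose in TKO lenses. It was Mlx, with 6.60 ± 0.10 (log2, SD, n = 5) in TKO P0 and 6.17 ± 0.16 in control P0 lenses. Of 9 coactivators of Myc, 3 fell and none rose. Kat2a, a histone acetylase that Myc recruits, changed by -0.65 ± 0.09 (limma, adjusted p = 0.000546), and Ruvbl1, an ATPase of chromatin complexes, by -0.20 ± 0.05 (adjusted p = 0.00718). Of 10 genes of the Sin3 corepressor, which the Mxd proteins recruit, 3 rose and 2 fell. Rbbp7 and Sap30, subunits of that complex, rose by 0.30 and 0.25, while the subunit Arid4b fell by 0.33 and Sin3b, a scaffold of the complex, fell by 0.17. Of 11 genes that set the stability of the Myc protein, 3 rose and 3 fell at P0. Stub1, a ubiquitin ligase, rose by 0.41 ± 0.08 (adjusted p = 0.0021) and Aurka, a mitotic kinase that shields Mycn from degradation, by 0.96 ± 0.29 (adjusted p = 0.0245). The deubiquitinase Usp7 changed by -0.37 ± 0.06 (adjusted p = 0.00142).

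Known targets of Myc were counted in 3 lists. Of 23 targets in the nucleolus and ribosome assembly, 4 rose and 1 fell at P0 and 18 stayed short of the threshold, with a median change of 0.05 (log2) against -0.01 over all genes. Over all genes 20.2% rose and 19.4% fell, so the risen share of this list was no larger than that of all genes. Nip7, a ribosome assembly factor, rose by 0.47 ± 0.06 (limma, adjusted p = 0.000275) and Fbl, the fibrillarin of the nucleolus, by 0.28 ± 0.07 (adjusted p = 0.0105). Polr1b, a subunit of RNA polymerase I, changed by -0.40 ± 0.08 (adjusted p = 0.00248). Of 24 targets of growth and metabolism, 9 rose, 3 fell and 12 did not pass, with a median change of 0.10. Cdc25a, a phosphatase that starts DNA replication and is also an E2F target, rose by 1.08 ± 0.12 (adjusted p = 0.000171) and the nucleotide kinase Nme1 by 0.44 ± 0.06 (adjusted p = 0.000636). Hexokinase Hk2 changed by -0.62 ± 0.07 (adjusted p = 0.000196) and the amino acid transporter Slc7a5 by -0.75 ± 0.11 (adjusted p = 0.00076).

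Among 8 genes known as repressed by Myc, 2 rose and 1 fell in TKO P0 lenses, close to the 39.6% of all genes called, with a median change of 0.12 (log2). Gas1, a growth arrest gene, averaged 10.2 ± 0.33 (SD, n = 5) in TKO and 8.93 ± 0.27 in control lenses. Cdkn1a, the p21 inhibitor of cyclin-dependent kinases and a p53 target, averaged 7.60 ± 1.03 in TKO and 5.74 ± 0.15 in control lenses, with a change of 1.86 ± 0.40 (limma, adjusted p = 0.00422). Cdkn1b, the related p27 inhibitor, changed by -0.56 ± 0.18 (adjusted p = 0.0331). The members of this list thus did not move one way. At E17.5 limma called 2 genes over all 7 lists of partners and targets, both among the stability genes. They were Aurka, which rose by 0.83 ± 0.18 (adjusted p = 0.0396), and the deubiquitinase Usp36, which changed by -0.65 ± 0.14 (adjusted p = 0.0387) and was named after its values were seen. At an unadjusted p below 0.05, 5 of 23 nucleolar and 11 of 24 growth targets passed at E17.5, as did 25.6% of all genes.

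**Figure D5:**
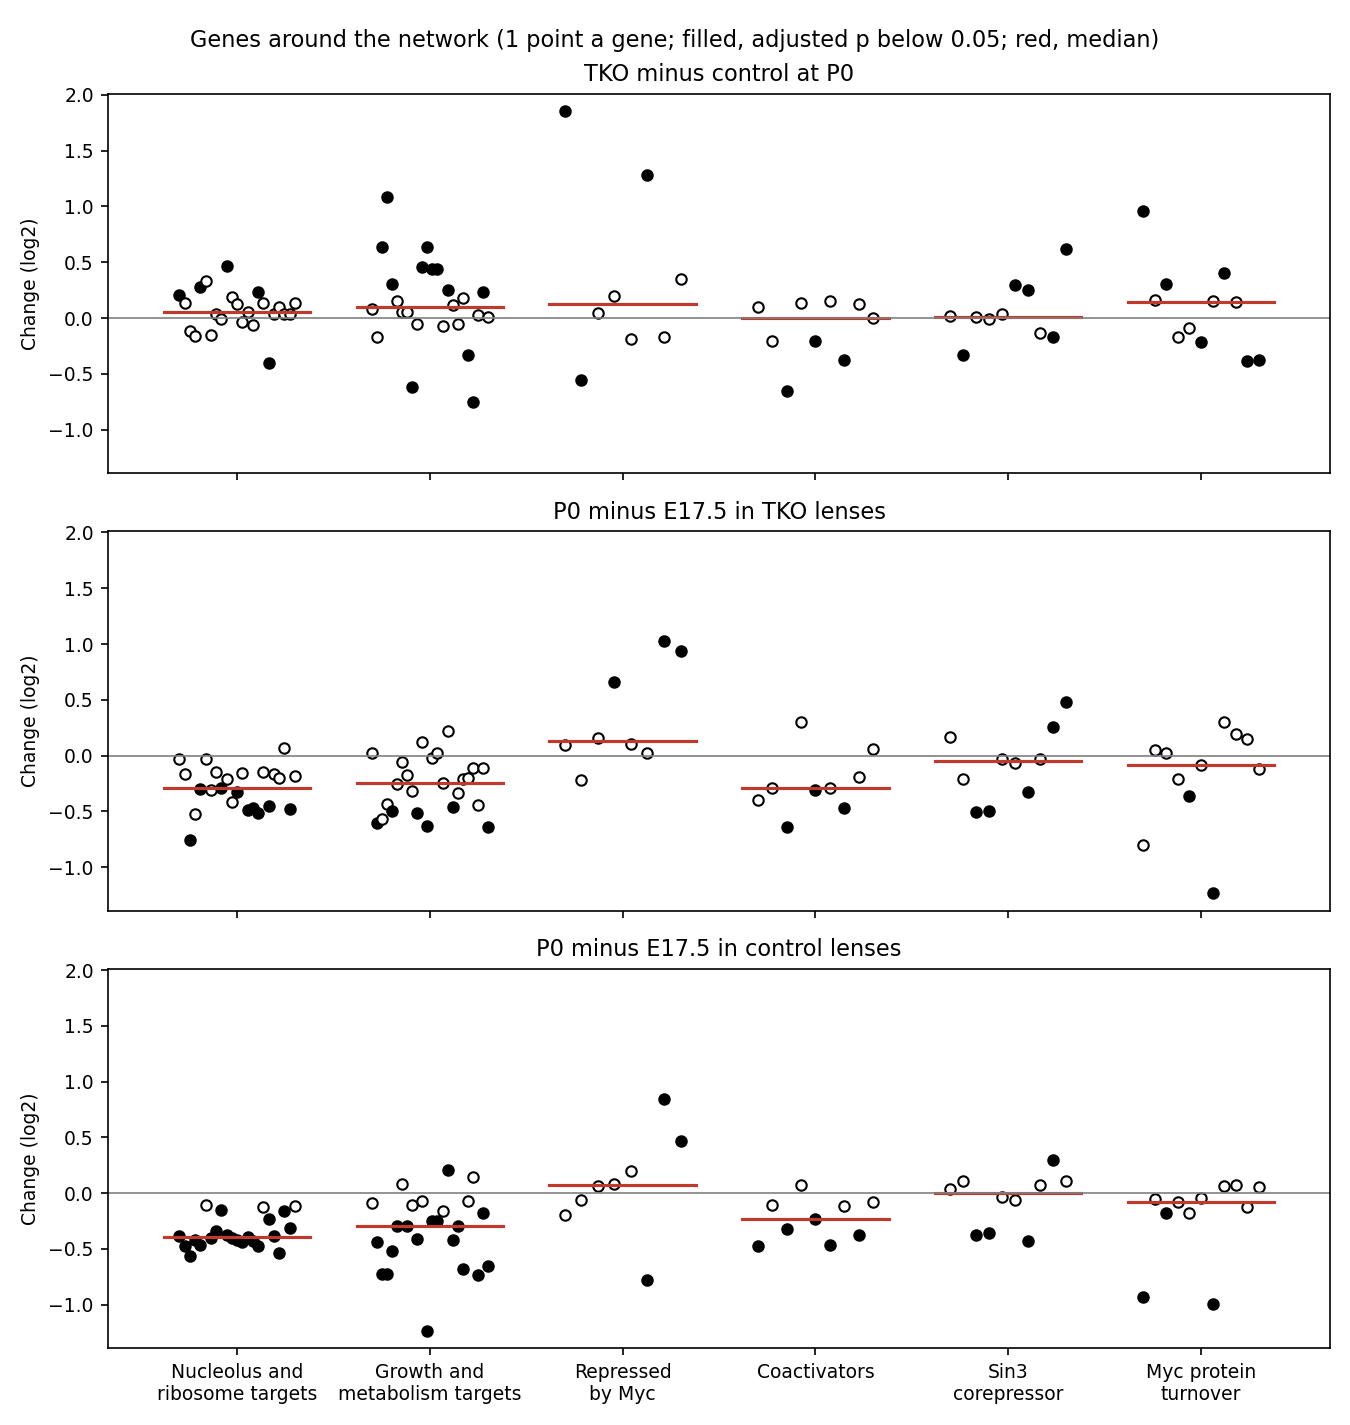
Change of each tested gene (log2) in 6 lists of partners and targets of the network, between genotypes at P0 and between stages in TKO and in control lenses, 1 point per gene, filled where the adjusted p is below 0.05, with a red bar for the median of each list. Most nucleolar targets lie below 0 between stages in control lenses (median -0.40), while the same list lies around 0 between genotypes at P0 (median 0.05).

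Between stages, the nucleolar targets of Myc were lower at P0. In TKO lenses 9 of 23 fell and none rose, with a median change of -0.29 (log2) against -0.03 over all genes, where 8.77% of all genes fell. In control lenses 20 of 23 fell and none rose, with a median of -0.40 against -0.04, where 24.9% of all genes fell. Fbl changed by -0.30 ± 0.09 in TKO lenses (limma, adjusted p = 0.0476) and by -0.46 ± 0.06 in control lenses (adjusted p = 0.000243). Nip7 changed by -0.21 ± 0.10 in TKO lenses (adjusted p = 0.163) and by -0.38 ± 0.05 in control lenses (adjusted p = 0.000292). Of the 24 growth targets, 6 fell and none rose in TKO lenses, and 16 fell and 1 rose in control lenses. The test of the difference between the P0 and E17.5 effects called none of the nucleolar and none of the growth targets. In it 1 and 4 of them had an unadjusted p below 0.05, as did 15.7% of all genes. Myc RNA was also lower at P0 in both genotypes, and whether these changes are linked was not tested.

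The other lists are set beside the shares of all genes called between stages, 5.8% higher and 8.77% lower in TKO lenses and 12.5% higher and 24.9% lower in control lenses. Of the 8 repressed genes, 3 rose in TKO lenses and 2 rose and 1 fell in control lenses. Of the coactivators, 3 of 9 fell in TKO lenses and 5 of 9 in control lenses, and none rose in either. Of the Sin3 genes, 2 of 10 rose and 3 fell in TKO lenses, and 1 rose and 3 fell in control lenses. Mlx fell by 0.45 in TKO lenses (limma, adjusted p = 0.0118) and by 0.58 in control lenses (adjusted p = 0.000643). Of the 4 tested genes of the extended network, 2 fell and none rose in TKO lenses, and 1 rose and 2 fell in control lenses. The riser was Mycl, the third Myc gene, by 0.27 ± 0.05 (adjusted p = 0.00122). Between genotypes at P0 Mycl was not called (adjusted p = 0.472).

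The genes whose pattern over the 20 arrays lay nearest to a member were found by the root mean square distance of log2 values, after each gene's own mean was subtracted. Mxd1, with an SD of 0.55 over the 20 arrays, lay nearest to Cry2, a repressor of the circadian clock (distance 0.117), then Klhl5 (0.147) and Maf, a transcription factor of lens fibres (0.157). Mycn (SD 0.29) lay nearest to Ssx2ip (0.0915), Scd2, a fatty acid desaturase (0.108), and Plekha3 (0.112). Myc (SD 0.36) lay nearest to A930024E05Rik (0.120), Hnrnpc (0.153) and Zfp217 (0.161). Max, with an SD of 0.40, had the most distant neighbours, Retreg3 (0.219), Mpst (0.251) and Tatdn2 (0.259). For Mxd4 they were Zfas1 (0.136), Hpse (0.145) and Csdc2 (0.149), for Mxi1 Epc1 (0.0927), Mzt1 (0.0939) and Zfp687 (0.0964), and for Mnt Tbc1d20 (0.0771), Opa3 (0.0928) and Urgcp (0.0961). No other member was among these nearest genes.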

How the data were processed

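Lens RNA of 20 mice was labelled and hybridised to Affymetrix arrays, 1 array per mouse. The authors deposited log2 values, 1 per probe set, from 1.72 to 15.0. The log2 scale was read from the values, and the sources used here do not name the background correction, probe summary or normalization. The values were used as deposited. The number of arrays limits the precision.

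Of 45101 probe sets, 64 were controls, and the platform annotation named 1 gene for 34945, several for 932 and none for 9160. Symbols were updated through RefSeq (GRCm38.p6). For each of 18193 genes the probe set of highest mean was kept, and the 11859 genes whose kept probe set exceeded the array median on 5 or more arrays were tested.

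Groups were compared with limma 3.58.1 in R 4.3.3 (lmFit and eBayes, two-sided), using the 10 arrays of the groups compared, or all 20 for the difference of effects. P-values were adjusted by Benjamini-Hochberg over all genes tested and called below 0.05. Errors beside changes are SEs, and those beside means are SDs of 5 arrays. P-values measure the spread between mice, whose litter, sex, strain and batch the labels do not give. The fits were tested on simulated data. The comparisons of genotypes and stages share arrays.

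The members, gene lists and designs were chosen with earlier results of these data known. The text names all members, up to 2 risen and 2 fallen genes of each list by adjusted p at P0, some of them again in other comparisons, the nearest genes of each called member, and E2f1 and E2f3. Usp36 and Mycl were named outside that rule.

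Alternatives were quantile normalization, median centring, no filter and a stricter filter, the mean of a gene's probe sets, every probe set, leaving out cross-hybridising probe sets, all arrays in 1 fit, a weight per group, a retina covariate, and leaving out arrays.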

Additional observations from a re-analysis of the deposited data

Results flagged for a closer look

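Among the 76 sets of 5 arrays of the 19 probe sets, 2 held an array that stood apart from the other 4 by Dixon's criterion, which by chance marks about 1 in 20 such sets. For Mycn (1417155_at), TKO E17.5 replicate 28 was lowest at 9.22 (log2), with the nearest array at 10.11, a gap of 0.743 of the group's range. For Mnt (1418192_at), TKO P0 replicate 18 was highest at 8.36, with the nearest array at 8.17, a gap of 0.759 of the range.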

How the results depend on the processing

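No member's change in any comparison reversed its sign while called in these alternatives. They did not include the other tested probe sets of a gene, each on its own. Among those, 1425732_a_at of Mxi1 had the opposite sign to the call at P0 (0.20 ± 0.08; limma, adjusted p = 0.0658 over all probe sets). The count of 0 members called at E17.5 became 1 with quantile normalization, the stricter filter, the mean of probe sets, every probe set, a weight per group or the retina covariate, and 2 with all 20 arrays in 1 fit or without TKO E17.5 replicates 24 and 27, and lay between 0 and 1 when 1 array was left out. The 4 members called at P0 became 0 with the retina covariate and 3 to 5 with 1 array left out. The 2 called between stages in TKO lenses became 1 with centring, the stricter filter (Myc was then not tested) or a weight per group, and 0 to 3 with 1 array left out. The 4 called between stages in control lenses became 2 with all 20 arrays or the retina covariate, and 4 to 5 with 1 array left out. For the difference of effects, 0 members became 0 to 1 with 1 array left out. Over all genes, the 343 called at E17.5 became 580 with quantile normalization, 197 with centring, 1586 with every probe set, 1541 with all 20 arrays, 713 with a weight per group, 893 with the retina covariate, 2953 without replicates 24 and 27, and 49 to 1129 with 1 array left out. The 4700 at P0 became 9197 with every probe set, 1426 with the retina covariate and 3671 to 5071 with 1 array left out. The 1728 between TKO stages became 2644 with no filter, 884 with the stricter filter, 3499 with every probe set, 3940 with all 20 arrays, 4153 with the retina covariate and 440 to 2716 with 1 array left out. The 4431 between control stages became 7950 with every probe set, 2046 with all 20 arrays, 1492 with the retina covariate and 3669 to 4443 with 1 array left out. The 21 for the difference of effects became 96 with every probe set, 0 with a weight per group, 1 with the retina covariate, 45 without replicates 24 and 27, and 0 to 321 with 1 array left out. Every probe set tests more features than genes, and the causes of the other shifts, apart from leaving out 24 and 27, were not tested. Leaving out replicates 24 and 27, which were chosen for their likeness to controls, widens the genotype differences at E17.5 by construction. In a fit of every probe set without the filter, chosen after seeing the data, the dim probe set of Mxd3 passed at E17.5, and neither that of Mxd4 between control stages nor that of Mnt between TKO stages did. No paired analysis was possible because the labels do not give the litters of the mice.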

Other observations

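Of the 19 probe sets, 3 lay below the array median on all 20 arrays and were outside the filtered tests, 1448878_at of Mxd3, 1422575_at of Mxd4 and 1418193_at of Mnt. In the limma fit of every probe set without the filter, 1418193_at differed between TKO and control lenses by 0.00 ± 0.07 (log2, SE) at P0 and by -0.31 ± 0.10 at E17.5 (adjusted p = 0.993 and 0.102). The Mxd4 probe set 1422575_at differed by 0.01 ± 0.10 at P0 and by 0.17 ± 0.12 at E17.5 (adjusted p = 0.964 and 0.428). The Mxd3 probe set 1448878_at, which passed at E17.5, differed by -0.10 ± 0.07 at P0 (adjusted p = 0.344).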
